A study of Mus musculus with 6 samples.

Results

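The genes followed here encode regulators of alternative splicing and of messenger RNA stability in neurons: Ptbp1, Ptbp2, Nova1, Rbfox1, Rbfox2, Rbfox3, Elavl2, Elavl3, Elavl4 and Srrm4. They were taken by symbol, with every probe set annotated to exactly 1 of these symbols. A probe set is a group of short probes on the array that is summarised as 1 value. All 10 genes were measured, by 32 probe sets, out of 18193 genes and 34945 probe sets that carry a single symbol.

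The values came from 6 arrays of RNA from corticothalamic projection neurons, the deep-layer cortical neurons whose axons run to the thalamus. All mice were C57BL/6, and the E18 sources are labelled wild type embryos. Green fluorescent microspheres placed in the thalamus were carried back along the axon to the cell body, and labelled cells were then sorted from dissociated cortex. The 3 stages had 2 arrays each: E18 (injected at E17.5, collected at E18.5), P3 (injected at P1, collected at P3) and P6 (injected at P4, collected at P6). The interval from injection to collection was therefore 1 day at E18 and 2 days at both postnatal stages, and this cannot be told apart from stage. Nothing in the labels ties the arrays to separate mice, litters or sorting runs. The p-values below therefore describe the spread between single arrays, which may be technical.

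Ptbp1, the polypyrimidine tract binding protein, binds pyrimidine-rich RNA and keeps many neuronal exons out of transcripts in progenitors and non-neuronal cells. Its targets include the transcript of its own relative Ptbp2, which loses an exon and is degraded while Ptbp1 is abundant. As neurons form, the microRNA miR-124 lowers Ptbp1, Ptbp2 takes its place, and Ptbp2 in turn declines as neurons mature. Rbfox and Nova proteins act on neuronal exons according to where they bind, Srrm4 promotes inclusion of very short neuronal exons, and the neuronal Elavl (Hu) proteins bind uridine-rich RNA and stabilise or splice it. The arrays measured the amount of transcript under each set of probes, not the inclusion of an exon and not protein.

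The E18 arrays were much closer to each other than the postnatal pairs, with a correlation across probe sets of 0.998 against 0.958 at P3 and 0.975 at P6. Over the 32 probe sets the median gap between the arrays of a stage was 0.07 at E18, 0.34 at P3 and 0.30 at P6 on the log2 scale. Values of the 18S control were 14.22 on P3 replicate 2 and 13.92 on P6 replicate 1, and 11.32 to 11.83 on the other 4 arrays. Signs of RNA quality and hybridisation moved with stage. The Actb signal at the 3′ end minus that at the 5′ end was 0.56 and 0.58 at E18 and 0.82 to 1.76 postnatally, and for Gapdh it was 1.44 to 1.48 against 1.68 to 2.55. Hybridisation controls read 9.25 to 9.59 at E18 and 9.85 to 13.01 afterwards. These run beside every comparison with E18, and their part in the results was not tested except by the fits with the 18S or hybridisation level as a covariate. Leaving out 1 array of a stage leaves that stage with a single array, which is then assumed to vary like the other stages. A call gained that way in a comparison of that stage rests on that 1 array. Without P3 replicate 1 it is P3 replicate 2, which had the highest 18S value (14.22) and the widest Actb difference (1.76). Because the E18 arrays may hold less independent information than their number implies, the fits were also run with them averaged into 1 sample. Transcripts that mark dividing cells and cortical progenitors were high at E18 and low afterwards, and their levels are given beside the Ptbp1 probe sets.

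Between E18 and P3, 11 of the 32 probe sets rose and 1 fell at an adjusted p below 0.05. The rises were in 6 genes, all 3 Rbfox genes, Ptbp2, Elavl2 and Ptbp1, and the single fall was in Ptbp1, which was thus called in both directions. Nova1, Elavl3, Elavl4 and Srrm4 had no called probe set. Among all probe sets 28.6% were called in this comparison, 11.5% higher and 17.1% lower. Setting Ptbp1 aside, 10 of 29 probe sets were higher and 0 lower at P3. The median change of the 32 probe sets was 0.42 on the log2 scale, against 0.11 for all probe sets. The comparisons of P3 and of P6 with E18 share the E18 arrays. With the E18 arrays averaged, or with either of them left out, 5 of the 12 calls were left: those of Ptbp1 1424874_a_at, 3 Rbfox1 probe sets and Rbfox2 1418245_a_at. These 5 passed under every alternative that was run.

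**Figure D1:**
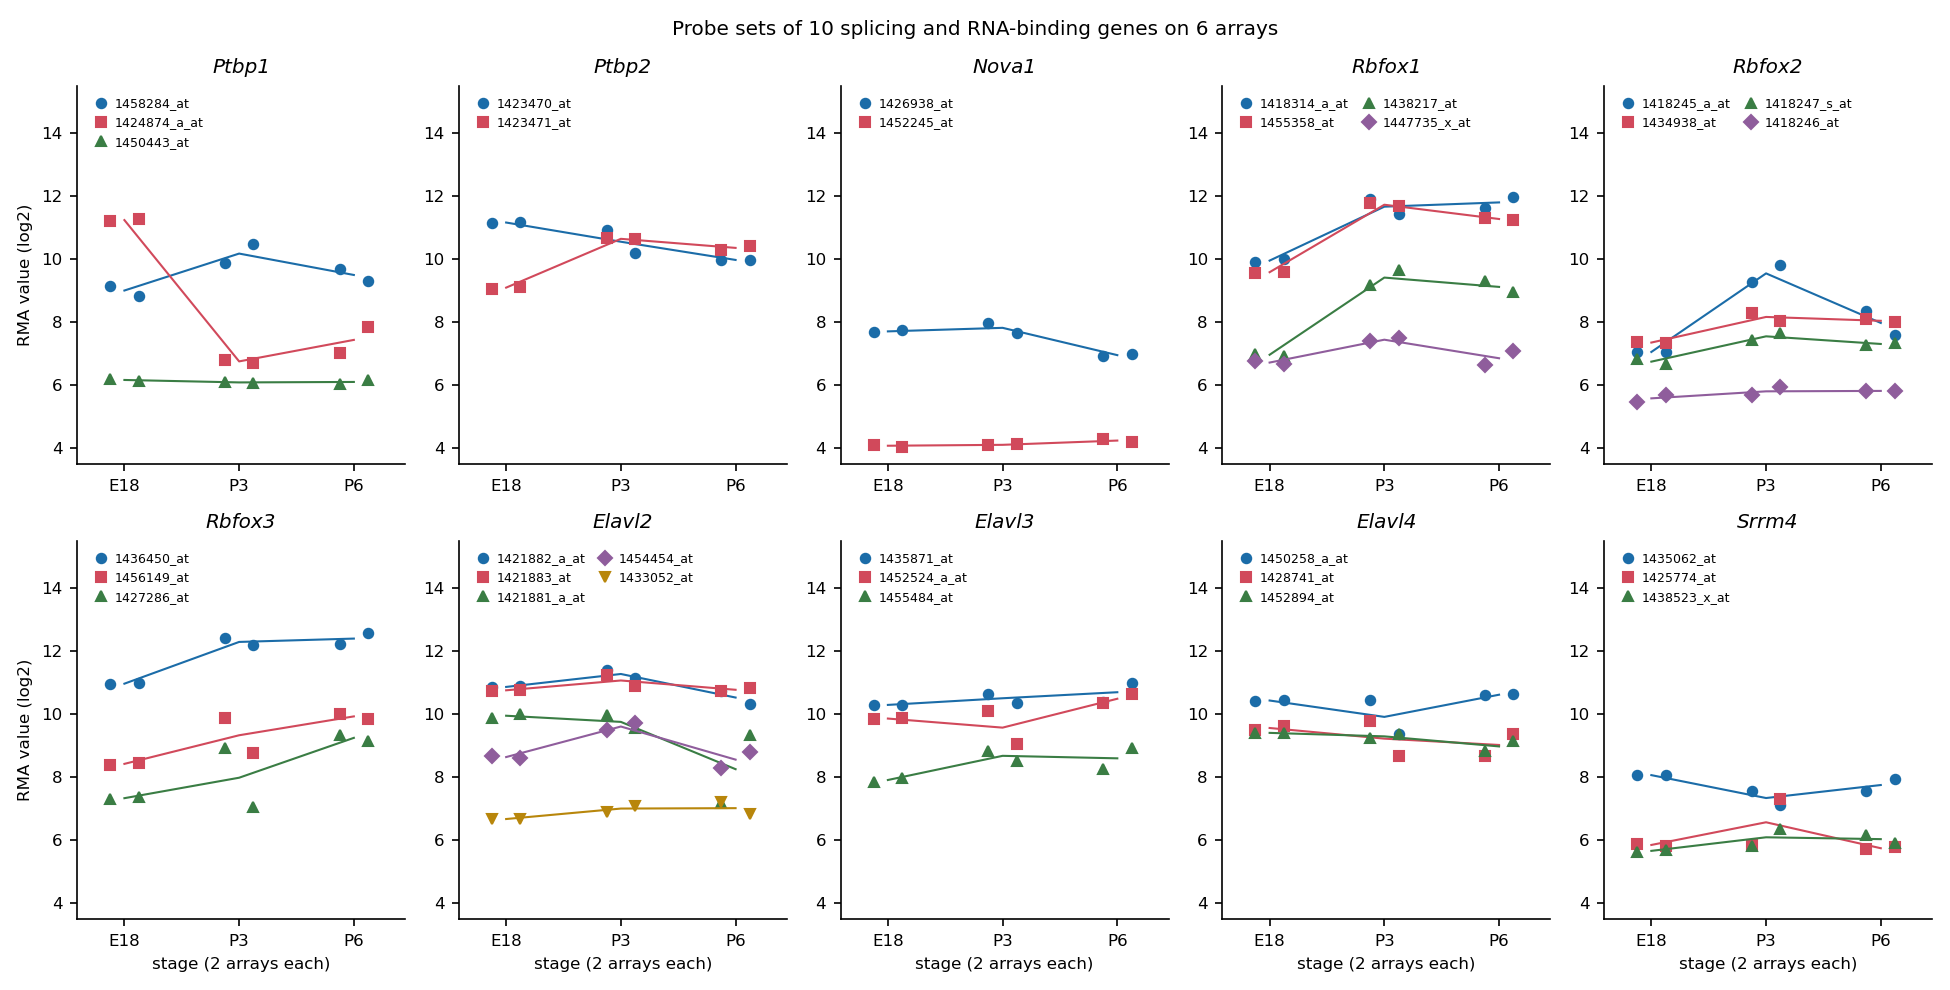
Log2 value (vertical axis) of every probe set of the 10 genes on each of the 6 arrays (points, 2 per stage), with 1 panel per gene and lines through the stage means. The Ptbp1 probe set 1424874_a_at drops from above 11 at E18 to below 8 on all postnatal arrays, whereas the other 2 Ptbp1 probe sets do not.

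The 3 Ptbp1 probe sets disagreed: 1 fell, 1 rose and 1 showed no called change. The probe set with the highest mean, which was the one used for the difference between Ptbp2 and Ptbp1, was 1458284_at, the one that rose. The largest change was the fall of probe set 1424874_a_at, designed on a cDNA clone or mRNA record. The E18 arrays read 11.21 and 11.28, the P3 arrays 6.82 and 6.70, and the P6 arrays 7.03 and 7.86 (log2 values, as throughout). Both E18 arrays were above all 4 postnatal arrays. The level was 22.4-fold lower at P3 than at E18 (log2 change -4.48, SE 0.31, n = 2 arrays per stage, limma adjusted p = 0.000177) and 13.9-fold lower at P6 (-3.80, SE 0.31, adjusted p = 0.000339). Stages therefore ranked E18, then P6, then P3, and the step from P3 to P6 did not pass the test (0.68, SE 0.31, adjusted p = 0.351). In bulk samples of this kind, fewer cells of a type and less RNA per cell cannot be told apart.

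The probe set with the highest mean, 1458284_at, designed on an expressed sequence tag, read 9.17 and 8.85 at E18, then 9.87 and 10.50 at P3, then 9.70 and 9.31 at P6. At P3 it stood 2.25-fold above E18 (1.17, SE 0.30, adjusted p = 0.0309), and it was not called at P6 (0.49, SE 0.30, adjusted p = 0.291). The rise at P3 was not called without E18 replicate 1 (adjusted p = 0.134), without E18 replicate 2 (0.246) or without P3 replicate 2 (0.0685). Probe set 1450443_at stayed between 6.05 and 6.22 on all 6 arrays, and its change to P3 was -0.08 (SE 0.16, adjusted p = 0.719). It was the dimmest Ptbp1 probe set, with its mean at percentile 36.6 of all probe sets. The file does not say where along the Ptbp1 transcript each probe set lies, so the reason for the disagreement was not tested.

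Ptbp2, the neuronal relative of Ptbp1, was read by 2 probe sets that were designed on the same expressed sequence tag. Probe set 1423471_at read 9.07 and 9.13 at E18, then 10.66 and 10.64 at P3, then 10.29 and 10.44 at P6. Every postnatal array was above both E18 arrays, by 2.92-fold at P3 (1.55, SE 0.21, adjusted p = 0.003) and 2.40-fold at P6 (1.26, SE 0.21, adjusted p = 0.00684). Those calls did not hold without E18 replicate 1 (adjusted p = 0.0619 at P3 and 0.126 at P6) or without E18 replicate 2 (0.0569 and 0.111).

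The brighter Ptbp2 probe set, 1423470_at, went the other way. It read 11.15 and 11.18 at E18, then 10.93 and 10.19 at P3, then 9.99 and 9.98 at P6, so the 3 stages did not overlap and ranked E18, P3, P6. The change to P3 was not called (-0.61, SE 0.29, adjusted p = 0.144). Without P3 replicate 1 it was -0.98, a value that rests on P3 replicate 2 alone. By P6 the level was 2.28-fold lower than at E18 (-1.19, SE 0.29, adjusted p = 0.0275). Leaving out any 1 of the E18 or P6 arrays ended that call, with adjusted p-values of 0.188, 0.203, 0.124 and 0.0962 without E18 replicate 1, E18 replicate 2, P6 replicate 1 and P6 replicate 2.

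The balance of the pair was read as the Ptbp2 value minus the Ptbp1 value on each array, comparing the 4 postnatal arrays with the 2 E18 arrays. An exact two-sided permutation test over the 15 possible splits can give no p below 0.0667. For the brightest probe set of each gene (1423470_at and 1458284_at) the difference was 1.98 and 2.33 at E18 and between -0.31 and 1.06 afterwards, a shift of -1.73 toward Ptbp1 (exact permutation p = 0.0667). With Ptbp1 read by 1424874_a_at the sign turned. The shift toward Ptbp2 was then 3.24 with Ptbp2 probe set 1423470_at and 5.55 with 1423471_at (both exact permutation p = 0.0667). For the last of these pairs the difference was -2.13 and -2.15 at E18, then 3.84 and 3.94 at P3, then 3.26 and 2.58 at P6. Using Ptbp1 probe set 1450443_at the shift was -0.83 (exact permutation p = 0.133) or 1.47 (p = 0.0667) by the Ptbp2 probe set used, and pairing 1458284_at with 1423471_at gave 0.57 (p = 0.267). Of the 6 pairs, 4 moved toward Ptbp2 and 2 toward Ptbp1, so the direction of the switch depended on the probe sets. The pairs share probe sets, so they are not independent readings and their tally carries no weight. Ptbp1 1450443_at was dim and nearly unchanged, so the pairs with it mainly restate the change of Ptbp2.

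Because Ptbp1 and Ptbp2 are the pair contrasted here, the 250 bases before 1 RefSeq transcription start of each are shown, 5′ to 3′ on the gene's strand. Ptbp1 lies at chr10:79854432-79864435 and Ptbp2 at chr3:119718741-119784647 in GRCm38.p6, the build of all coordinates here. The Ptbp2 start shown, at 119783388 on the minus strand, lies within these bounds and is not the outermost. Which start was used in these neurons was not measured for either gene. Capitals mark matches, on either strand, to the E-box CANNTG, the core site of basic helix-loop-helix factors, and to the GC box GGGCGG, the core of Sp1-type sites. Matches of 1 motif may overlap, as the GC boxes of Ptbp2 do.
Ptbp1, chr10:79854182-79854431, plus strand: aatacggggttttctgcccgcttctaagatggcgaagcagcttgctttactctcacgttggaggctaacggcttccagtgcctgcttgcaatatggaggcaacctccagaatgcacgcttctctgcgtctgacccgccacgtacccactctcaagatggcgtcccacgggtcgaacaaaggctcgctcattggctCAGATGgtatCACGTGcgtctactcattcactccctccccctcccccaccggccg
Ptbp2, chr3:119783389-119783638, minus strand: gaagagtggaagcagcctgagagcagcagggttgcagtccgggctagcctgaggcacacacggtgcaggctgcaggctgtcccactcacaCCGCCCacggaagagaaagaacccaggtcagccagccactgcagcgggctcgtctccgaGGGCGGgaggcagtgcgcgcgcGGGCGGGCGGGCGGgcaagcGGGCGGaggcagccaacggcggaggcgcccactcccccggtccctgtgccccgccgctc
The Ptbp1 window held 17 CpG dinucleotides, 2 E-boxes and 0 GC boxes at 57.6% G+C. The Ptbp2 window held 23 CpG dinucleotides, 6 GC boxes and 0 E-boxes at 72.4% G+C. Among 32851 RefSeq promoter windows of the same length, 66.2% held an E-box and 32.7% a GC box, with medians of 6 CpG dinucleotides and 52.4% G+C. A match is a description of the letters only.

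The Rbfox genes gave the most concordant rises, with 8 of their 11 probe sets called higher at P3 and 0 lower. Of all probe sets, 11.5% were called higher and 17.1% lower. Only the calls of Rbfox1 1455358_at, 1438217_at and 1418314_a_at and of Rbfox2 1418245_a_at passed under every alternative that was run. Rbfox1 is expressed in neurons and muscle. Its probe set 1455358_at read 9.57 and 9.61 at E18, then 11.77 and 11.69 at P3, then 11.31 and 11.25 at P6. All postnatal arrays stood above both E18 arrays, by 4.41-fold at P3 (2.14, SE 0.20, adjusted p = 0.000599) and by 1.69 on the log2 scale at P6 (adjusted p = 0.00159).

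Rbfox1 1438217_at rose further, from E18 readings of 7.0 and 6.94 to 9.19 and 9.66 at P3, then 9.30 and 8.95 at P6. That was 5.46-fold at P3 (2.45, SE 0.26, adjusted p = 0.00107) and 2.15 on the log2 scale at P6 (adjusted p = 0.00174). The brightest Rbfox1 probe set, 1418314_a_at, went from 9.92 and 10 to 11.90 and 11.44 and then 11.63 and 11.99. At P3 it stood 3.27-fold above E18 (1.71, SE 0.25, adjusted p = 0.00396), and it was 1.85 higher on the log2 scale at P6 (adjusted p = 0.00282). Probe set 1447735_x_at, a type whose probes can match other sequences, read 6.77, 6.69, 7.41, 7.50, 6.64 and 7.08 on the arrays in stage order. Its change of 0.73 at P3 (adjusted p = 0.0488) lost its call without any 1 of the E18 or P3 arrays (adjusted p 0.248, 0.309, 0.0521 and 0.104 for E18 replicates 1 and 2 and P3 replicates 1 and 2), and at P6 the change was 0.14 (adjusted p = 0.68).

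Rbfox2 is the family member that is also expressed outside neurons. Its probe set 1418245_a_at read 7.06 and 7.07 at E18, then 9.29 and 9.82 at P3, then 8.35 and 7.62 at P6. It was highest at P3, 5.63-fold above E18 (2.49, SE 0.32, adjusted p = 0.00229), and the 3 stages did not overlap. The P6 level was 0.92 above E18 (adjusted p = 0.0913) and 1.57 below P3, a step that did not pass the test (SE 0.32, adjusted p = 0.186). Without P3 replicate 1 that step was -1.84, with P3 replicate 2 alone standing for P3.

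Smaller rises were seen at 2 other Rbfox2 probe sets. At 1434938_at the arrays read 7.38 and 7.34, then 8.29 and 8.06, then 8.10 and 8.0, a change of 0.81 at P3 (SE 0.21, adjusted p = 0.0313). At 1418247_s_at they read 6.82 and 6.69, then 7.44 and 7.67, then 7.29 and 7.35, a change of 0.80 (SE 0.20, adjusted p = 0.0274). Without E18 replicate 1 their adjusted p-values were 0.241 and 0.193, and without E18 replicate 2 they were 0.275 and 0.274. At P6 the changes of 0.69 and 0.56 were not called (adjusted p = 0.0622 and 0.097), but they were without P3 replicate 1 (0.0202 and 0.039) or P3 replicate 2 (0.0203 and 0.0389), which changes only the spread estimate. The dimmest, 1418246_at, changed by 0.22 (adjusted p = 0.338). The probe sets 1418245_a_at, 1418246_at and 1418247_s_at were designed on 1 shared expressed sequence tag, so they are not independent readings.

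Rbfox3 encodes the nuclear antigen NeuN, used as a marker of mature neurons. Its brightest probe set, 1436450_at, read 10.96 and 10.98 at E18, then 12.40 and 12.18 at P3, then 12.23 and 12.57 at P6. The postnatal arrays were all above E18, by 2.50-fold at P3 (1.32, SE 0.21, adjusted p = 0.00565) and by 1.43 on the log2 scale at P6 (adjusted p = 0.00408). Without E18 replicate 1 the adjusted p was 0.0679 at P3 and 0.0535 at P6, and without E18 replicate 2 it was 0.0681 and 0.0518.

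P3 replicate 2 parted from P3 replicate 1 at the other 2 probe sets of Rbfox3. Probe set 1456149_at read 8.39 and 8.46, then 9.89 and 8.77, then 10.01 and 9.85, and 1427286_at read 7.30 and 7.38, then 8.92 and 7.05, then 9.34 and 9.16. At P3 neither was called, with changes of 0.91 (SE 0.37, adjusted p = 0.108) and 0.65 (SE 0.55, adjusted p = 0.379). Without P3 replicate 2 the changes were 1.47 and 1.59, values that rest on P3 replicate 1 alone. By P6 the change was 1.51 at 1456149_at (adjusted p = 0.0307) and 1.91 at 1427286_at (adjusted p = 0.0518), the latter called under 7 of 16 alternatives, including without P3 replicate 1 (adjusted p = 0.00133) or P3 replicate 2 (0.00132). The call at 1456149_at ended without any 1 of the E18 or P6 arrays, with adjusted p-values of 0.168 and 0.150 for E18 replicates 1 and 2 and 0.163 and 0.0992 for P6 replicates 1 and 2.

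Rbfox1 and Rbfox3 rose together at several probe sets, and their RefSeq starts are shown for that reason. Rbfox1 lies at chr16:5884793-7412480 and has starts far apart, of which the outermost and a downstream one are given. Rbfox3 lies at chr11:118489760-118911597 on the minus strand. Its start shown here, at 118761041, lies within these bounds and is not the outermost. Capitals again mark E-boxes, and none of these windows had a GC box.
Rbfox1, chr16:5884543-5884792, plus strand: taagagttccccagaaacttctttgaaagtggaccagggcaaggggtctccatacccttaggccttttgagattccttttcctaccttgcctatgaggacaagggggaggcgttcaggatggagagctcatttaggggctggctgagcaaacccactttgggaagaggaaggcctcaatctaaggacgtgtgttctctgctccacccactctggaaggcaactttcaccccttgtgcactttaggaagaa
Rbfox1, chr16:7069585-7069834, plus strand: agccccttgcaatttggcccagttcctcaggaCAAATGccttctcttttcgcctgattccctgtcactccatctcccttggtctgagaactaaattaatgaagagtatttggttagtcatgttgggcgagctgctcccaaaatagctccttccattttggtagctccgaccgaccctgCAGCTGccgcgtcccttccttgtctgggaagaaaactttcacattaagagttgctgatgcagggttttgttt
Rbfox3, chr11:118761042-118761291, minus strand: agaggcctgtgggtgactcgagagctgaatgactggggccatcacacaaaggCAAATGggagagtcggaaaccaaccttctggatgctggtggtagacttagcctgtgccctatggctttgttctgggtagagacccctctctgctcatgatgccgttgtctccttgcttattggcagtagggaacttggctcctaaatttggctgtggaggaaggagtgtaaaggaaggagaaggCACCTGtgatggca
These windows held 2, 6 and 3 CpG dinucleotides, fewer than the 17 and 23 in the windows shown for Ptbp1 and Ptbp2. E-boxes numbered 0, 2 and 2. Which start was used in these neurons was not measured.

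**Figure D2:**
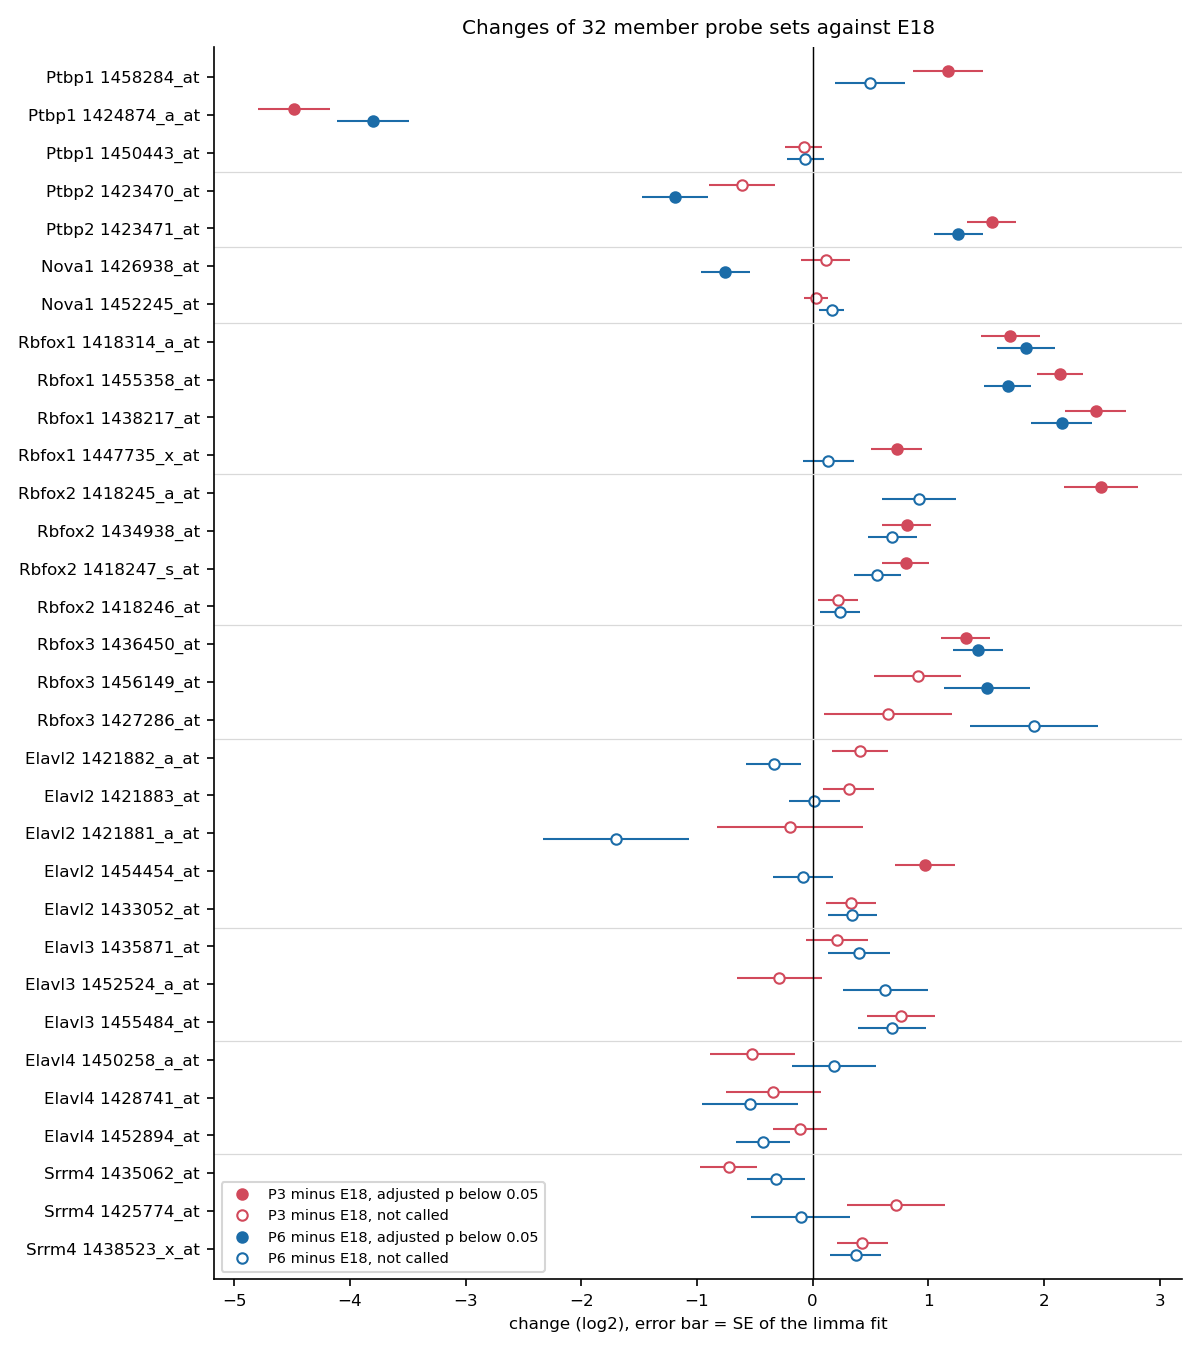
Log2 change against E18 (horizontal axis) at P3 and at P6 for each of the 32 probe sets, with bars of 1 standard error from the limma fit and filled points where the adjusted p was below 0.05. The Rbfox probe sets lie to the right of 0, Ptbp1 holds the largest fall of the 32, and the Elavl3, Elavl4 and Srrm4 probe sets are all open.

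Nova1 encodes a neuronal protein that binds short pyrimidine-flanked motifs and guides synaptic exons. Probe set 1426938_at read 7.68 and 7.75 at E18, then 7.99 and 7.66 at P3, then 6.94 and 6.98 at P6. E18 and P3 overlapped (0.11, SE 0.21, adjusted p = 0.694), and both P6 arrays lay below all the others. The fall from E18 to P6 was 0.75 on the log2 scale (log2 change -0.75, SE 0.21, adjusted p = 0.0488). It was not called without any 1 of the E18 or P6 arrays (adjusted p 0.314, 0.378, 0.138 and 0.094 for E18 replicates 1 and 2 and P6 replicates 1 and 2). In all, 10 of 17 alternatives ended the call, among them quantile normalisation (-0.63, adjusted p = 0.0624) and subtraction of array medians (-0.73, adjusted p = 0.0569). The step from P3 to P6 was -0.87 (adjusted p = 0.206), and -0.70 without P3 replicate 1, with P3 replicate 2 alone standing for P3. The second Nova1 probe set, 1452245_at, was the only 1 of the 32 below the lower quartile of probe set means, at 4.06 to 4.31, and gives little information.

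The neuronal Elavl genes had 1 called probe set of 11 at P3 and 0 at P6. Of all probe sets, 28.6% were called at P3 and 21.1% at P6. In each of these genes some probe sets were designed on a shared sequence record, so they are not independent readings. Elavl2, which is also found in germ cells, had 5 probe sets, and only the probe set 1454454_at was called at P3. It read 8.68 and 8.60 at E18, then 9.51 and 9.71 at P3, then 8.31 and 8.81 at P6. That was 0.97 above E18 at P3 (SE 0.26, adjusted p = 0.0343) and -0.08 from E18 at P6 (adjusted p = 0.84). Its call at P3 was lost without E18 replicate 1 (adjusted p = 0.211), E18 replicate 2 (0.261) or P3 replicate 2 (0.0726).

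The brightest Elavl2 probe set, 1421882_a_at, read 10.85 and 10.88, then 11.40 and 11.15, then 10.74 and 10.32, and 1421883_at read 10.73 and 10.78, then 11.24 and 10.90, then 10.73 and 10.82. Neither passed at P3 (0.41, adjusted p = 0.219, and 0.31, adjusted p = 0.299), though both did after quantile normalisation (0.76 and 0.67, adjusted p = 0.0333 and 0.0157). Probe set 1421881_a_at was near 10 on the first 4 arrays, at 9.89, 10.01, 9.96 and 9.55, and then 7.18 on P6 replicate 1 but 9.33 on P6 replicate 2. That gap of 2.14 was the largest between arrays of a stage among the 32 probe sets. The change at P6 (-1.70, adjusted p = 0.109) was called only with array weights or without P6 replicate 2. The latter value, -2.77, rests on P6 replicate 1 alone. The dimmer 1433052_at ranged from 6.67 to 7.21.

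Elavl3, expressed in neurons of nearly all types, was read at 10.29 to 11.00 by 1435871_at, at 9.04 to 10.63 by 1452524_a_at and at 7.84 to 8.93 by 1455484_at. The last of these came closest to a call at P3, reading 7.84 and 7.99, then 8.85 and 8.51, then 8.27 and 8.93 (0.77, adjusted p = 0.0899). It was called higher after quantile normalisation (1.17, adjusted p = 0.0156) and with 18S as a covariate (1.11, adjusted p = 0.0222). At 1452524_a_at the low value of 9.04 was P3 replicate 2, against 10.11 on P3 replicate 1. The change there was -0.29 with both P3 arrays (adjusted p = 0.553), -0.82 without P3 replicate 1 and 0.24 without P3 replicate 2. Its sign thus depended on which P3 array was used. At P6 the Elavl3 changes were 0.40, 0.63 and 0.69 at 1435871_at, 1452524_a_at and 1455484_at (adjusted p = 0.329, 0.267 and 0.15). The 1452524_a_at change was called without P3 replicate 1 (adjusted p = 0.0352) or P3 replicate 2 (0.0345).

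Elavl4, which stabilises messages of growing axons such as that of Gap43, likewise had no called probe set. Probe set 1450258_a_at read 10.41 and 10.46, then 10.47 and 9.36, then 10.59 and 10.64, and 1428741_at read 9.51 and 9.61, then 9.78 and 8.67, then 8.68 and 9.36. At both the P3 arrays differed by over 1 log2 unit, with P3 replicate 2 the lower. Their changes at P3 were -0.52 (adjusted p = 0.293) and -0.34 (adjusted p = 0.539). Without P3 replicate 1 the former was -1.07, a value that rests on P3 replicate 2 alone. Probe set 1452894_at ranged from 8.82 to 9.41. At P6 the changes from E18 were 0.18, -0.54 and -0.43 at 1450258_a_at, 1428741_at and 1452894_at (adjusted p = 0.74, 0.387 and 0.235).

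Srrm4, the activator of neuronal microexons, was also without a call. Probe set 1435062_at read 8.06 and 8.07 at E18, then 7.55 and 7.13 at P3, then 7.57 and 7.93 at P6. All postnatal arrays were below E18, with a change of -0.73 at P3 (SE 0.25, adjusted p = 0.0685). That change passed in the fit with 1 probe set per gene (adjusted p = 0.0463). Without P3 replicate 1 it was -0.94, a value that rests on P3 replicate 2 alone. At 1425774_at P3 replicate 2 alone was high, at 7.30 against 5.72 to 5.89 on the other arrays, and 1438523_x_at ranged from 5.62 to 6.36. Their changes at P3 were 0.72 (SE 0.43, adjusted p = 0.223) and 0.43 (SE 0.22, adjusted p = 0.168). Without P3 replicate 1 these probe sets were called higher, at 1.45 (adjusted p = 0.00314) and 0.70 (adjusted p = 0.0291), values that rest on P3 replicate 2 alone.

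At P6, 6 of the 32 probe sets were above E18 and 3 below, where 21.1% of all probe sets were called, 8.76% higher and 12.4% lower. The rises were those of Ptbp2 1423471_at, 3 Rbfox1 and 2 Rbfox3 probe sets, and the falls those of Ptbp1 1424874_a_at, Ptbp2 1423470_at and Nova1 1426938_at. With the E18 arrays averaged 4 calls were left, and the same 4, of Ptbp1 1424874_a_at and the 3 Rbfox1 probe sets, passed under every alternative. Between P3 and P6 limma called 0 of the 32, with 6 at an unadjusted p below 0.05, and 0% of all 34945 probe sets, of which 5392 had an unadjusted p below 0.05. Without P3 replicate 1 it called 8 of the 32 and 6277 in all. Calls between P3 and P6 thus rested on which P3 array was used. A test of whether the second interval differed from the first called 6 of the 32, 1 higher and 5 lower, against 12.1% of all probe sets, 8.87% higher and 3.26% lower.

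Progenitor and dividing-cell transcripts, like Ptbp1 1424874_a_at, were mostly high at E18 and low on the postnatal arrays. The summed signal of 11 radial glia and intermediate progenitor genes, as log2, was 15.28 and 15.27 at E18 and 10.64 to 11.26 on the postnatal arrays, and 9 of the 11 fell at P3 (30.4% of all genes, each read by its brightest probe set, were called in this comparison, 12.1% higher and 18.3% lower). For 7 proliferation genes it was 15.16 and 15.23 at E18 and 10.68 to 11.37 afterwards, and 7 of 7 fell. As examples from the lists, the transcript of Eomes, the intermediate progenitor factor, fell 46.2-fold at P3. That of Mki67, a marker of cycling cells, fell 69.6-fold. The progenitor genes Pax6 and Nes were not called at P3, with changes of 0.66 (adjusted p = 0.0866) and 0.07 (adjusted p = 0.851). The counts of 9 and 7 were the same with the E18 arrays averaged and with any 1 array left out. The fall of Ptbp1 1424874_a_at by 22.4-fold ran beside falls of these lists. Within P3, this Ptbp1 probe set and the proliferation sum (10.68 against 11.34) were lower on replicate 2. The progenitor sum was higher there, at 11.09 against 10.64. Within P6, Ptbp1 and the progenitor sum (11.26 against 11.01) were higher on replicate 2. The proliferation sum was lower there, at 11.30 against 11.37. The part of these lists in the Ptbp1 result was not tested.

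Markers of glia shifted as well. The summed signal of 8 astrocyte genes was 14.19 and 14.20 at E18, 10.42 to 10.49 at P3, and 11.12 and 12.53 at P6. At P3, 4 of 8 fell, where 18.3% of all genes were called lower and 12.1% higher. The falls were in Aldh1l1, Aldoc, Apoe and Gja1, whereas Aqp4, Gfap, Slc1a2 and S100b were not called. Over 8 microglia genes the sum was 12.90 and 12.88 at E18, then 10.04 and 11.17 at P3, then 10.74 and 12.60 at P6, with 4 of 8 falling at P3 and 0 at P6, where 22.5% of all genes were called, 10.2% higher and 12.3% lower. The microglia falls at P3 numbered 2 without any 1 of the E18 or P3 arrays, 6 without either P6 array, and 0 with the 18S or hybridisation level as a covariate. At P6 they numbered 6 without P6 replicate 2. P6 replicate 2 was the higher P6 array for both lists and for Ptbp1 1424874_a_at, at 7.86 against 7.03. At P3 the microglia sum was higher on replicate 2, whereas Ptbp1 1424874_a_at was lower there, at 6.70 against 6.82. The astrocyte sum was also lower on P3 replicate 2, at 10.42 against 10.49. The part of glia in the Ptbp1 result was not tested. Vascular, oligodendrocyte-lineage and interneuron lists had 3 of 6, 2 of 6 and 3 of 6 genes lower at P3 and none higher.

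Most markers of the labelled cell type moved the other way, with the Rbfox genes. Over 11 corticothalamic and layer 6 genes the summed signal was 12.25 and 12.35 at E18, then 14.45 and 13.86 at P3, then 14.55 and 14.36 at P6, and 10 of 11 rose at P3. Over 7 pan-neuronal genes it was 13.34 and 13.35 at E18 and 14.76 to 14.92 afterwards, and 5 of 7 rose. The exceptions at P3, none of them called, were Fezf2 (-0.45) among the corticothalamic genes and Map2 (0.60) and Dcx (0.72). At P6 Map2 and Dcx stood at -0.33 and -0.50 from E18, also not called. Over all genes, 12.1% were called higher at P3. With the E18 arrays averaged, or without E18 replicate 1 or 2, 6 of the 11 corticothalamic genes were called higher, and 5 of the 7 pan-neuronal genes. With the hybridisation level as a covariate the corticothalamic count was 4. Rbfox1 and Rbfox3 rose beside these lists. Whether the rises of the Rbfox genes reflect these shifts in markers was not tested.

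**Figure D3:**
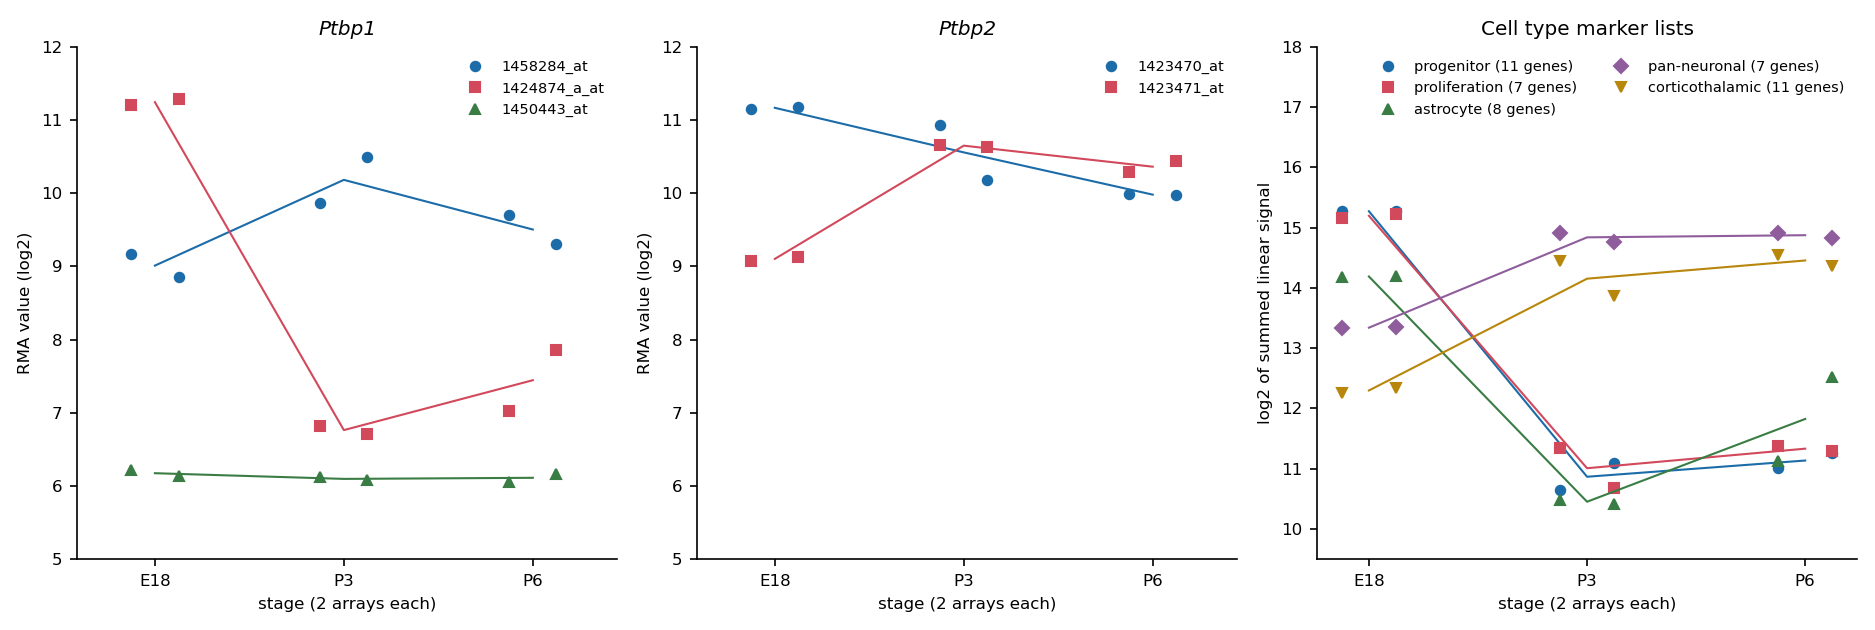
Log2 values (vertical axis) by stage (horizontal axis, 2 points per stage for the 2 arrays, lines through stage means) of the Ptbp1 and Ptbp2 probe sets, beside the log2 summed signal of the progenitor, proliferation, astrocyte, neuron and corticothalamic marker lists. Ptbp1 1424874_a_at and the progenitor and proliferation sums are high on both E18 arrays and low on the 4 postnatal arrays, whereas the neuronal and corticothalamic sums are higher postnatally.

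Of 4 close relatives outside the group, 1 was called at P3, against 30.4% of all genes. Srrm3, a microexon activator related to Srrm4, read 6.76 and 6.75 at E18, then 7.66 and 7.32 at P3, then 8.53 and 8.50 at P6. Its stages did not overlap, and it was above E18 at P3 (0.74, SE 0.22, adjusted p = 0.0449) and at P6 (1.76, adjusted p = 0.00181). At P3 the call was lost under 8 alternatives, including without E18 replicate 1 or 2 and without P6 replicate 1 or 2, with adjusted p-values up to 0.306. Ptbp3, Nova2 and Elavl1, the ubiquitous Hu protein HuR, changed by -0.45, 0.33 and 0.14 at P3 (adjusted p = 0.298, 0.493 and 0.663).

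Other splicing regulators were read from a list. Of 25 measured tissue-regulated splicing and RNA-binding regulators, 2 rose and 11 fell at P3, where 12.1% of all genes rose and 18.3% fell, with a list median of -0.38 against 0.09 over all genes by their brightest probe sets. Celf4, a neuronal relative of the CELF splicing factors, rose 4.74-fold (2.24, SE 0.25, adjusted p = 0.0012). Zfp36l1, an RNA decay factor of the ZFP36 family, was 37.6-fold lower at P3 (-5.23, SE 0.53, adjusted p = 0.000798), and its relative Zfp36l2 was 5.76-fold lower (adjusted p = 0.000744), although only 1 of 3 Zfp36l2 probe sets had that sign. Mbnl2, a muscleblind splicing factor of the brain, was 8.15-fold lower at P3 (-3.03, adjusted p = 0.00108) and still lower than E18 at P6 (-1.37, adjusted p = 0.0261), with 3 of its 5 probe sets of that sign at P3. For Mbnl1 (3 probe sets), Fxr1 (4) and Zfp36l2 (3), the probe set used was the 1 of that sign. With the E18 arrays averaged or either left out, 6 of the 25 genes were called lower, and without P3 replicate 1, 6 were called higher in place of 2.

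General splicing factors were read from 2 lists. Among 14 measured SR proteins and related activators, which promote exon inclusion, 0 rose and 7 fell at P3, or 50% against 18.3% of all genes lower, with a median of -1.0. Srsf10, an SR-related factor, was 4.12-fold lower (-2.04, SE 0.30, adjusted p = 0.00419), and Srsf2, Srsf4 and Srsf11 were 2.35-fold, 2.41-fold and 2.25-fold lower. Of 23 measured hnRNP and poly(C) binding genes, 0 rose and 6 fell, or 26.1% against 18.3% of all genes lower, with a median of -0.32. Raly was 5.39-fold lower (adjusted p = 0.0014), with 1 of its 2 probe sets of that sign, Hnrnpm 3.57-fold, Hnrnpa1 2.40-fold and Pcbp1 2.39-fold. The Hnrnpa1 call was also lost without P6 replicate 1 or 2 (adjusted p = 0.054 for both). These counts were less firm than the Rbfox calls. With E18 averaged, or without E18 replicate 1 or 2, 1 SR gene and 1 hnRNP gene were called lower, and without P3 replicate 1 the numbers were 11 and 10. With the level of the hybridisation controls as a covariate they were 0 and 1.

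REST represses neuronal genes in progenitors and non-neuronal cells, and its own transcript is a target of Srrm4. Rest read 8.10 and 8.47 at E18, then 6.54 and 6.20 at P3, then 5.95 and 5.99 at P6, and it was 3.77-fold lower at P3 (-1.92, SE 0.22, adjusted p = 0.00151), with 3 of its 4 probe sets of that sign. Of 9 genes of the REST repressor complex and its phosphatases, 6 fell and 1 rose at P3, with a median of -1.92. Over all genes, 18.3% fell and 12.1% rose. The corepressor Rcor2 was 6.53-fold lower, the phosphatase Ctdsp1 5.61-fold and Sin3a 3.84-fold. Kdm1a, the histone demethylase of the complex, was the gene that rose, by 2.35-fold, a call that did not hold with E18 averaged or without E18 replicate 1 or 2.

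Known RNA targets of the 10 regulators gave a mixed list, with 4 of 15 measured genes higher at P3 and 2 lower, against 12.1% and 18.3% of all genes. Gap43, a growth cone protein whose message Elavl4 stabilises, rose 4.82-fold (adjusted p = 0.00035). The glycine receptor subunit Glra2, a Nova target, rose 5.78-fold, and Shtn1, an axon growth protein, 3.75-fold. Gabbr1, a GABA-B receptor subunit, rose 2.01-fold, and Flna, the actin crosslinker filamin A, was 6.14-fold lower (adjusted p = 0.000331). The other fall was that of Phf21a, a subunit of the LSD1 demethylase complex, at 4.25-fold (adjusted p = 0.0158), which is named here after its values were seen. Without P3 replicate 1 the number higher was 7, and with E18 averaged 3 were higher and 1 lower. These are whole-transcript signals, so they do not report on the exons that the regulators act on.

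From P3 to P6 none of the listed genes was called, and those with the smallest unadjusted p-values in each list are given as changes only. Srrm3 changed by 1.02 and Elavl1 by 0.29, Mbnl2 by 1.66 and Khdrbs2 by -0.84, and Srsf12 by 1.04 and Srsf1 by -0.36. Syncrip changed by -0.66 and Pcbp4 by 0.77, Rcor2 by 0.50 and Kdm1a by -0.56, and Gabbr1 by 0.65 and Flna by 0.64.

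**Figure D4:**
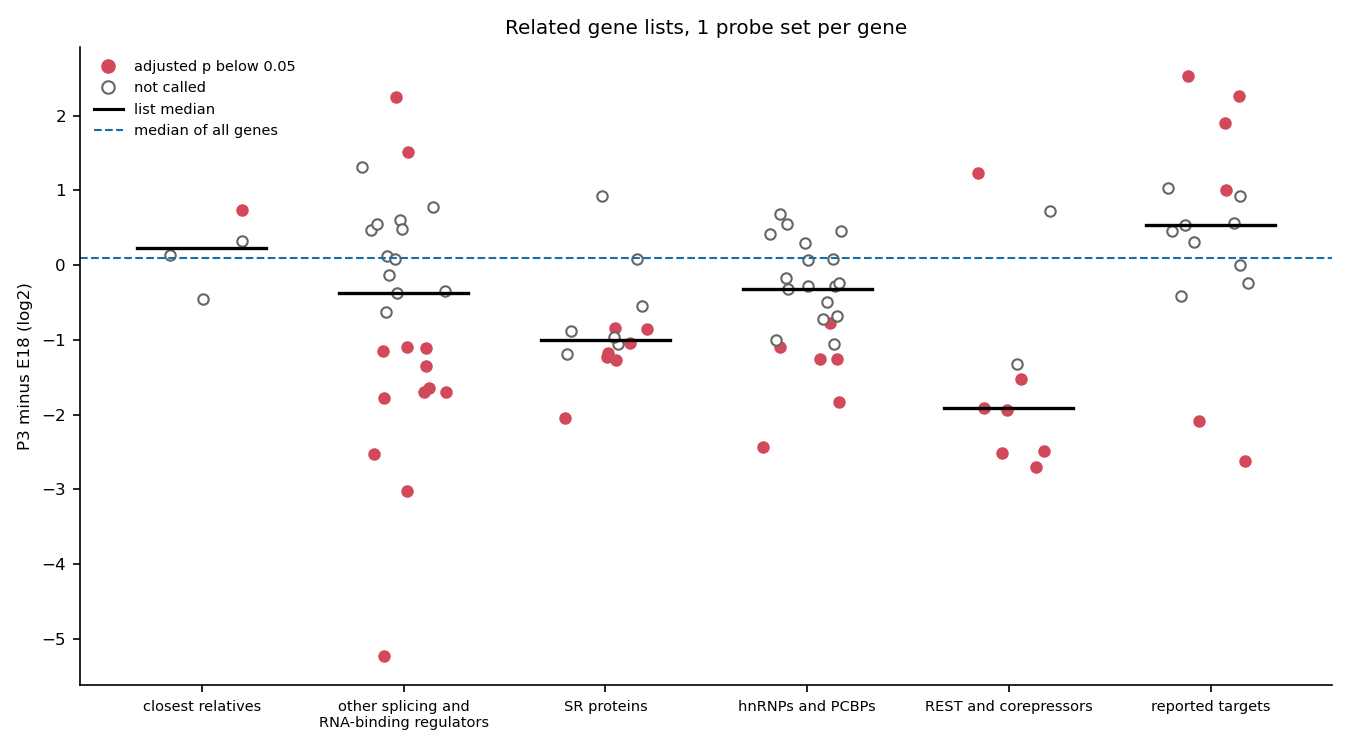
Log2 change from E18 to P3 (vertical axis) of each measured gene of the 6 lists of related genes (horizontal axis, 1 probe set per gene), with list medians as black bars, the median of all genes as a dashed line, and filled points where the limma adjusted p was below 0.05. The REST and SR lists lie mostly below 0, with medians of -1.92 and -1.0.

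The host transcripts of miR-124, chosen after their values were seen, were measured too, though the mature microRNA was not. Mir124-2hg read 8.05 and 8.26 at E18, then 9.63 and 9.35 at P3, then 9.45 and 9.16 at P6. It was above E18 at P3 (1.34, SE 0.25, adjusted p = 0.0094) and at P6 (1.15, adjusted p = 0.0173). Neither call held with the E18 arrays averaged (adjusted p = 0.113 at P3 and 0.184 at P6), with the hybridisation level as a covariate (0.0964 and 0.126), without E18 replicate 1 (adjusted p = 0.134 at P3 and 0.231 at P6) or E18 replicate 2 (0.0921 and 0.144), and the P6 call was also lost without P6 replicate 1 (0.081). Mir124a-1hg changed by 0.59 at P3 (adjusted p = 0.165), and by 0.94 without P3 replicate 1, a value that rests on P3 replicate 2 alone.

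The genes closest in profile to each Ptbp reading were found over 13644 genes by the root mean square difference of values centred on each gene's mean over the 6 arrays. For Ptbp1 1458284_at they were Sema3f (0.032), Pqlc3 (0.0618), Psg23 (0.0632) and 2900005J15Rik (0.0877), where the median gene stood at 0.744. For Ptbp2 1423470_at they were Pdcd6ip (0.0912), Nol8 (0.0927), Aasdh (0.101) and Heatr5a (0.105), against a median of 0.657. Searches added after the values were seen gave Cd9, Rad51ap1, Kcnj10 and Fam210b, at 0.157 to 0.184, for Ptbp1 1424874_a_at, and Nefm, Foxp1, Gpr85 and Pik3r1, at 0.0851 to 0.105, for Ptbp2 1423471_at. The 6 arrays share their stage structure, so such likeness is a description.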

How the data were processed

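The authors deposited log2 expression values per probe set for 6 Affymetrix mouse arrays, computed by RMA, per the submitters' processing notes. This method subtracts background, quantile normalises arrays and summarises the probes of a set. Its version, and whether the arrays were run together, are not given in the sources used here. Per the labels' protocols, RNA was amplified before labelling, which favours the 3′ end of transcripts. Of 45101 deposited probe sets, 34945 had 1 gene symbol, 932 several and 9160 none, and 64 controls were set aside. No symbol needed updating. Precision is limited by the 2 arrays per stage.

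The log2 values were used as deposited, without a filter, in limma 3.58.1 (R 4.3.3), with 1 mean per stage, an intensity trend and 3 residual degrees of freedom. P-values were adjusted by Benjamini-Hochberg over all 34945 probe sets and called below 0.05. Differences are on the log2 scale. The fitting script was tested on simulated data. These had independent noise with the same spread in every stage, so they did not test the unequal spread between stages seen here. Each gene of a list was read by its brightest probe set (highest mean over the arrays), and every member by all of its probe sets. In each list the genes named were the 4 with the smallest p between E18 and P3 and the 2 between P3 and P6. Every relative of the members and Rest were named too. The profile searches left out genes below the lower quartile of means. Promoter windows and coordinates are RefSeq's for GRCm38.p6. Of the 10 genes, 9 had an entry, with 18 starts, and Rbfox2 had none. The members and lists were chosen with earlier results of these data known.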

Additional observations from a re-analysis of the deposited data

Results flagged for a closer look

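For 6 probe sets the change from P3 to P6 differed from the change from E18 to P3, by a test of the difference itself (second interval minus first, limma, adjusted over all probe sets, of which 12.1% were called, 8.87% higher and 3.26% lower). Both intervals share the P3 arrays, so a deviation of those arrays moves the intervals in opposite directions. The difference was 5.16 on the log2 scale for Ptbp1 1424874_a_at (SE 0.54, adjusted p = 0.00312), which fell by 4.48 and then moved up by 0.68, the latter not called. It was -4.07 for Rbfox2 1418245_a_at (SE 0.56, adjusted p = 0.00776), the probe set highest at P3. For Rbfox1 it was -2.59 at 1455358_at (SE 0.35, adjusted p = 0.00736) and -2.74 at 1438217_at (SE 0.45, adjusted p = 0.0146), both of which rose to P3 with no called step after it. The remaining differences were -1.84 for Ptbp2 1423471_at (SE 0.37, adjusted p = 0.0256) and -2.02 for Elavl2 1454454_at (SE 0.45, adjusted p = 0.035). Of the 6 calls, those of Ptbp1 1424874_a_at and Rbfox2 1418245_a_at passed under every alternative. Without E18 replicate 1 or 2 the other 4 did not, with adjusted p from 0.0616 for Rbfox1 1455358_at to 0.184 for Elavl2 1454454_at.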

How the results depend on the processing

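The calls of Ptbp1 1424874_a_at, of 3 Rbfox1 probe sets and, at P3, of Rbfox2 1418245_a_at kept their direction and stayed past the threshold under all alternatives. With the E18 arrays averaged, 3097 probe sets were called between E18 and P3, 3098 between E18 and P6 and 1118 for the second interval minus the first, and 5, 4 and 2 of the 32. With the hybridisation controls as a covariate these numbers were 3406, 3800 and 1434, and 7, 6 and 3. The fit of 1 probe set per gene, which tests fewer features, called 5629 and 4320 from E18 to P3 and to P6. Array weights called 11842 from E18 to P6 and 2755 for the interval difference, and 14 and 4 of the 32. The weights were 6.15 for each E18 array, 0.30 for each P3 array and 0.53 for each P6 array. That fit therefore leaned on the closeness of the E18 arrays, which may be technical. Quantile normalisation called 14 of the 32 for the interval difference and moved the share of higher calls there from 73.1% to 58.4%. The cause of these moves was not tested. For the marker lists and the miR-124 hosts the same alternatives were chosen after seeing the data.

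The labels number the arrays 1 and 2 in each stage, but deviations of same-numbered arrays correlated at -0.173 (E18 and P3), 0.0537 (E18 and P6) and -0.243 (P3 and P6), so the numbers were not taken to pair the arrays. With the replicate number as a block, 7 of the 32 were called between E18 and P3, 9 between E18 and P6 and 4 for the interval difference, with 8092, 6481 and 3126 in all, and 0 between P3 and P6.

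Leaving out 1 array at a time gave 3052 to 16480 calls and 5 to 17 of the 32 between E18 and P3, 0 to 6277 and 0 to 8 between P3 and P6, 3064 to 10983 and 4 to 13 between E18 and P6, and 1092 to 12723 and 2 to 13 for the interval difference. The lowest counts came without an E18 array, save those between P3 and P6, and the highest without a P3 array.

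Uncalled changes turned sign in places. Without 1 array, the change to P3 ran from -0.0542 to 0.28 for Nova1 1426938_at, -0.29 to 1.59 for Rbfox3 1427286_at, -0.40 to 0.0115 for Elavl2 1421881_a_at, -0.82 to 0.24 for Elavl3 1452524_a_at, -1.07 to 0.0311 for Elavl4 1450258_a_at, -0.89 to 0.22 for Elavl4 1428741_at and -0.00874 to 1.45 for Srrm4 1425774_at. The change to P6 ran from -0.0846 to 0.36 for Rbfox1 1447735_x_at, -0.0321 to 0.065 for Elavl2 1421883_at and -0.33 to 0.17 for Elavl2 1454454_at, and from P3 to P6 Srsf12 ran from -0.00699 to 2.09. After quantile normalisation the change to P3 was -0.10 for Nova1 1452245_at, 0.26 for Elavl2 1421881_a_at, 0.17 for Elavl3 1452524_a_at, 0.12 for Elavl4 1428741_at and 0.38 for Elavl4 1452894_at, and the change to P6 was 0.10 for Elavl2 1454454_at. With 18S as a covariate the same probe sets gave -0.0198 (Nova1), 0.69 (Elavl2), 0.16 (Elavl3), 0.26 (Elavl4 1428741_at) and, at P6, 0.0028 (Elavl2 1454454_at). With the hybridisation covariate they gave -0.0565 (Nova1), 1.30 (Elavl2), 0.11 (Elavl4 1428741_at), 0.12 (Elavl4 1452894_at) and, at P6, 0.24 (Elavl2 1454454_at), while Ptbp3 gave 0.0179 at P3 and Ptbp1 1450443_at 0.0018 at P6. The shift of the Ptbp2 minus Ptbp1 difference, -1.73 for the brightest pair, was 3.24, 5.55, 1.47 and 0.57 for the pairs that turned its sign.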
